A study of Homo sapiens with 2 samples.

Results

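The proteasome genes described here are the 54 gene and transcript names, read by 84 of 58201 probes, that begin with PSMA, PSMB, PSMC, PSMD, PSME, PSMF or PSMG and a number. They are 54 of 43270 genes and transcripts on the array. Of these names, 48 belong to subunits, activators, inhibitors or assembly factors of the proteasome. The other 6 carry a proteasome symbol only in part: PSMC3IP, a recombination factor, and the antisense or neighbouring transcripts PSMA3-AS1, PSMB8-AS1, PSMD5-AS1, PSMD6-AS2 and PSMG3-AS1.

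R-HL60 cells are HL60 cells made resistant by continuous growth in rising concentrations of cytarabine, a deoxycytidine analogue that stops DNA synthesis. HL60 is the untreated parental line, a human acute myeloid leukaemia line of promyelocytic character. Whether R-HL60 is 1 clone or a mixed population, and whether the drug was present at harvest, is not stated in the labels. Each line was measured on 1 Agilent one-colour array, so no difference has a test or a standard error, and array and cell line cannot be told apart. RNA came from whole cultures, so more RNA in every cell and more cells that carry the RNA cannot be told apart either.

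The proteasome is the cell's main machine for degrading proteins tagged with ubiquitin. Its core, the 20S particle, is a barrel of alpha rings that gate the entrance and beta rings that hold the proteolytic sites. The 19S regulator binds ubiquitinated proteins, unfolds them with a ring of ATPases and feeds them into the barrel. Interferon-gamma and other inflammatory signals induce 3 replacement catalytic subunits, PSMB8, PSMB9 and PSMB10, which take the places of PSMB5, PSMB6 and PSMB7 in newly built particles and give the immunoproteasome. The activator PA28, made of PSME1 and PSME2, is induced by the same signals. Together they favour peptides that fit class I HLA molecules, and blood cells carry them even at rest.

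Because these 5 genes are known to share interferon control, their promoters are shown before their signals. The windows run from 250 bases before to 50 bases after the annotated start of each gene, 5′ to 3′ on the gene's strand, and come from RefSeq on build GRCh38.p14. Capitals mark matches to GAAANNGAAA on either strand, the core of the interferon-stimulated response element, so that a match on the opposite strand reads TTTCNNTTTC. PSMB8 has 2 annotated windows, and the one with a match is shown. The genes lie on chromosomes 6, 16 and 14, at chr6:32843998-32844297 (minus strand) for PSMB8, chr6:32853942-32854241 (plus strand) for PSMB9, chr16:67936801-67937100 (minus strand) for PSMB10, chr14:24135944-24136243 (plus strand) for PSME1 and chr14:24146561-24146860 (minus strand) for PSME2. For TAP1, which encodes a chain of the class I peptide transporter and starts 488 bases from PSMB9 on the opposite strand, a stretch of 56 bases at chr6:32853803-32853858 (minus strand) is shown because it lies between both starts.
PSMB8: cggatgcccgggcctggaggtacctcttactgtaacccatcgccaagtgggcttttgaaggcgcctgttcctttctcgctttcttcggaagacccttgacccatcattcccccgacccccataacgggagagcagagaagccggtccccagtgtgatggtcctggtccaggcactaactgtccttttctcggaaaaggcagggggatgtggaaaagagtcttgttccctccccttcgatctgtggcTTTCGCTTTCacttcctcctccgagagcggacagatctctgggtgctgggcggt
PSMB9: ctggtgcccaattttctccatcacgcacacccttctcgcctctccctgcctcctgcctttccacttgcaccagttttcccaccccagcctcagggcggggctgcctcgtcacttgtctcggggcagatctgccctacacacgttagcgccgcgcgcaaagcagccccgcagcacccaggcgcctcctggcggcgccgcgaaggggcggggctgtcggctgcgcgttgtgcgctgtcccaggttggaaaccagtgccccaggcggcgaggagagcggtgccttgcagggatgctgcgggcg
PSMB10: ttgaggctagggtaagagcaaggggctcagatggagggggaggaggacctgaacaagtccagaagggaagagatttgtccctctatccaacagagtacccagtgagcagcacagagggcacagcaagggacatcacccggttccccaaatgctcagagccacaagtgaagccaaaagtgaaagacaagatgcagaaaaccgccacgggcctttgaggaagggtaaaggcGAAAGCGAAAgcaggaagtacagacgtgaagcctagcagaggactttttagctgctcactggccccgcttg
PSME1: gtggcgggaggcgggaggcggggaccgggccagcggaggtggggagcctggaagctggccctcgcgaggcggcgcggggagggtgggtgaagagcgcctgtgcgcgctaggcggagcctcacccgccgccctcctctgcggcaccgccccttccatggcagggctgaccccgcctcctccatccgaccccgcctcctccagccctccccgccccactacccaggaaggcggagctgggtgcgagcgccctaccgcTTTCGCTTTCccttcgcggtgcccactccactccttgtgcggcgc
PSME2: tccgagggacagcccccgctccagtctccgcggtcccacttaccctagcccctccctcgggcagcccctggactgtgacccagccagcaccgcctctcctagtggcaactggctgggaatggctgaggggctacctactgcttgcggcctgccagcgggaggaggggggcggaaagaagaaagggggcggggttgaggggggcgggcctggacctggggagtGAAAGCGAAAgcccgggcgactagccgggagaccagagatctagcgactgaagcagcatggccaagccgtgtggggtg
TAP1: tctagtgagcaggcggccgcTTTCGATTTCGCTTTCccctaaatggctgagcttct

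The motif GAAANNGAAA was found in 3.57% of all 35116 RefSeq windows of this length, and in windows of PSMB8, PSMB10, PSME1 and PSME2. The window of PSMB9 held no match, while the TAP1 window at the start nearest to PSMB9 held 2 overlapping ones. In PSMB8, PSMB10, PSME1, PSME2 and TAP1 a match had the same letters, GAAAGCGAAA on one strand or the other, a spelling that was searched for after these windows had been read and that occurs in 35 windows, or 0.0997%. Of the 26 constitutive subunits with a window here, PSMA4 and PSMB4 had GAAANNGAAA and none had GAAAGCGAAA. The spelling is not confined to the induced genes among the names described here. The assembly factor gene PSMG4 (log2 difference 0.02) and the transcript PSMB8-AS1 (0.31) also had GAAAGCGAAA in a window. The match began 4 bases before the start in PSMB8, 21 before it in PSMB10 and 28 before it in PSME2, and 5 bases after it in PSME1. Among the other motifs searched on both strands, the gamma-activated sequence TTCNNNGAA (7.66% of windows) was found in PSMB8 and in another window of TAP1. It was also found in 5 of the 26 constitutive subunits, PSMB5 among them. The kappaB consensus (11.3%) was found in none of the 5 genes, in TAP1 and in 1 of the 26. TGACNNNGC, the core of the antioxidant response element (13.3%), was found in PSMB9, PSME1, PSME2 and 7 of the 26 constitutive subunits. These matches are letters in a window, not measured binding, and no overlap between the different motifs was counted.

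Both arrays were alike in brightness, with medians of 32.8 in R-HL60 and 30.7 in HL60. The array's own median served as the floor for a measured signal, and 21838 genes lay above it on both arrays. Over these genes the median log2 difference, R-HL60 minus HL60 after scaling each array to its 75th percentile, was -0.03, with an SD of 0.29. Different probes of a gene, the only repeated measurement, differed with a pooled SD of 0.19 on the log2 scale, falling to 0.08 in the brightest of 10 bins of genes. Promyelocytic markers were present, as the label says: all 8 of the 9 listed genes that were found lay above the floor on both arrays, led by the granule genes CTSG (315703 in R-HL60 and 357125 in HL60) and MPO (285746 in R-HL60 and 309491 in HL60). All 8 had lower signals in R-HL60 (median log2 difference -0.18), where 12491 of the 21838 measured genes were below 0. Of the 8, 2 were past 1.5-fold lower, where 1.26% of all measured genes were. The 2 were the granule proteases ELANE, at 153 in R-HL60 and 700 in HL60, and PRTN3, at 18985 in R-HL60 and 32955 in HL60.

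Among markers of other blood cells, which can carry immunoproteasome, 3 of 5 monocyte or dendritic genes were above the floor on both arrays, with summed signals over the list of 480 in R-HL60 and 348 in HL60. Such sums add probes that are not on a common scale and are led by the brightest. CLEC9A, at 215 in R-HL60 and 102 in HL60, and VCAN, at 94.8 in R-HL60 and 59.5 in HL60, were past 1.5-fold higher. Both were dim, and 3.16% of all measured genes were 1.5-fold higher. CD14 was at 146 in R-HL60 and 165 in HL60, and CD1C and FCGR3A were below the floor. Of the T cell genes 3 of 4 were above the floor, with sums of 6337 in R-HL60 and 4073 in HL60, nearly all of it CD3D (log2 difference 0.65). CD3E was at -0.15 and CD2 at -0.36, and CD3G was below the floor. Of the B cell genes 3 of 4 were above it, with sums of 3025 in R-HL60 and 2728 in HL60, and CD22 was below it. The part of these genes in the results was not tested. No fibroblast gene of 4 was above the floor on both arrays, and EPCAM and CDH1 were below it on both.

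Of the 54 names, 52 were measured on both arrays and none on 1 array only. The 2 below the floor on both were the tissue-restricted core subunits: PSMA8, the testis alpha subunit, was at 1.62 in R-HL60 and 1.99 in HL60, and PSMB11, the thymus beta subunit, at 20.2 in R-HL60 and 30.4 in HL60. All 46 other subunits and regulators were bright, between 1181 and 231964 units, far above the floor.

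PSMB9 was the only measured member past 1.5-fold, at 2.20-fold higher in R-HL60, and so also the only one past 2-fold. The 1 of 52 members compares with 3.16% of all measured genes that reached 1.5-fold upward and 0.687% that reached 2-fold. None of the 52 was 1.5-fold or 2-fold lower, where 1.26% and 0.256% of all genes were. The same gene carries both counts, and a count of 1 in 52 at 1.5-fold is near the background.

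**Figure D1:**
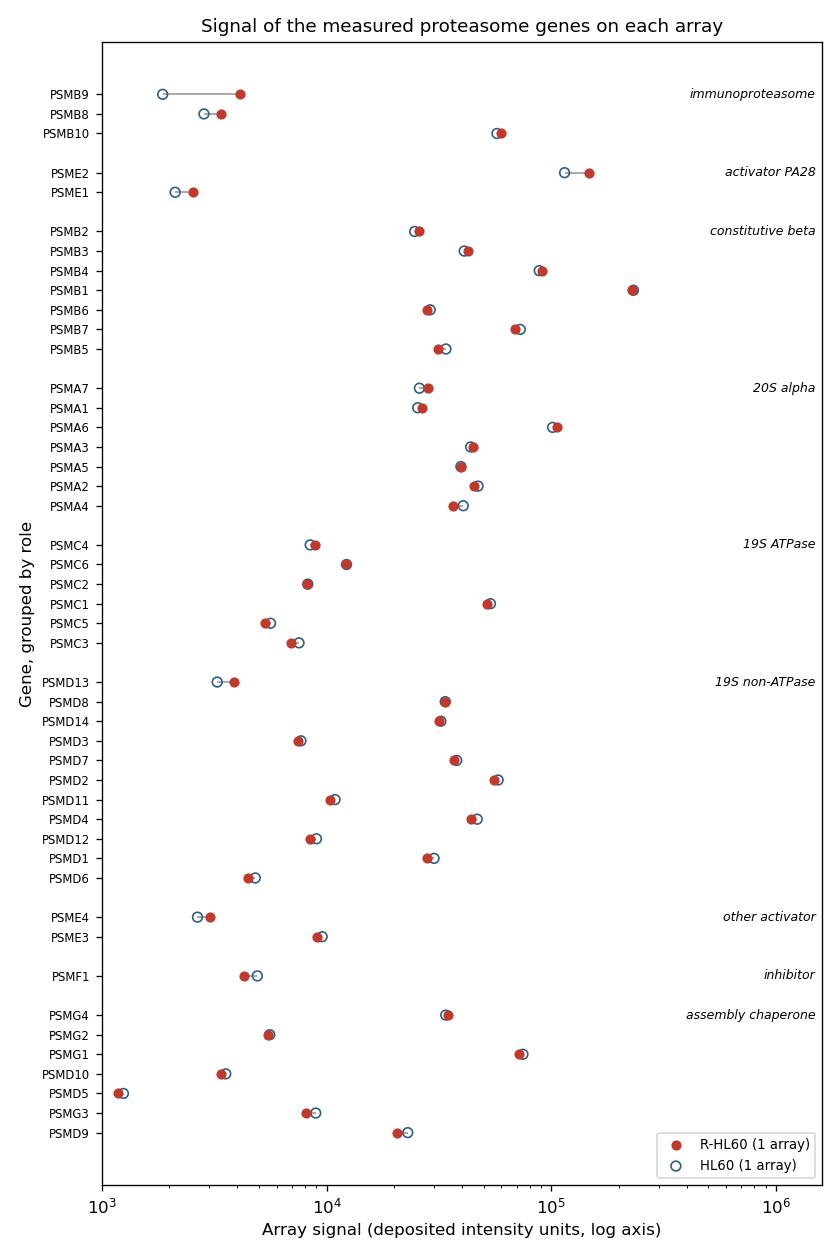
Signal of each of the 46 measured subunits and regulators on the R-HL60 array (filled red) and the HL60 array (open blue), with 1 array per line, a log axis and genes grouped by role. The widest gap between the 2 points of a gene is that of PSMB9, at 4128 in R-HL60 and 1867 in HL60, and most other points nearly coincide.

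The immunoproteasome subunits did not differ by the same amount. PSMB9, the beta1i subunit, which replaces the caspase-like site by one that cuts after hydrophobic residues, had a signal of 4128 in R-HL60, against 1867 in HL60 (log2 difference 1.14). Its difference ranked 91 from the top among the 21838 measured genes, and among the 2184 genes of like brightness only 6, itself included, were as high. The probe-to-probe SD in that brightness range was 0.13, a spread that leaves out differences between cultures and between arrays.

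PSMB8, the beta5i subunit with the chymotrypsin-like site, had 3377 in R-HL60 and 2849 in HL60, a log2 difference of 0.24. The R-HL60 signal was 1.18-fold higher, and 5.22% of genes of like brightness were at least as high. PSMB10, the beta2i subunit with the trypsin-like site, had 59655 in R-HL60 and 57295 in HL60, a log2 difference of 0.05. This is below the probe-to-probe SD of 0.08 for genes as bright, and it became -0.04 when each array was shifted by its median.

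Both PA28 genes were somewhat higher in R-HL60. PSME2, the beta chain of the ring-shaped activator that docks on the core in place of the 19S regulator, had 146373 in R-HL60 and 114552 in HL60 (log2 difference 0.35, or 1.27-fold). Only 1.14% of genes of like brightness were as high, and the difference was larger than the probe-to-probe SD of 0.08. PSME1, the alpha chain, had 2551 in R-HL60 and 2121 in HL60 (log2 difference 0.26, or 1.20-fold), and 4.58% of genes of like brightness were as high. Neither PA28 gene reached 1.5-fold. Each of the 5 genes was read by 1 probe, so agreement between probes was not tested for any of them.

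The constitutive catalytic subunits, whose places the immunoproteasome subunits take, had differences close to 0. PSMB5, the chymotrypsin-like site and main target of bortezomib, had 31482 in R-HL60 and 33968 in HL60 (log2 difference -0.12). PSMB6, the caspase-like site, had 28038 in R-HL60 and 28919 in HL60 (-0.05). PSMB7, the trypsin-like site, had 69141 in R-HL60 and 72755 in HL60 (-0.08). As the ratio of each induced subunit to its constitutive counterpart within an array, R-HL60 over HL60, the change was 2.28-fold for PSMB9 to PSMB6, 1.28-fold for PSMB8 to PSMB5 and 1.10-fold for PSMB10 to PSMB7. These ratios compare changes and not amounts, since signals of different probes are not on a common scale.

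**Figure D2:**
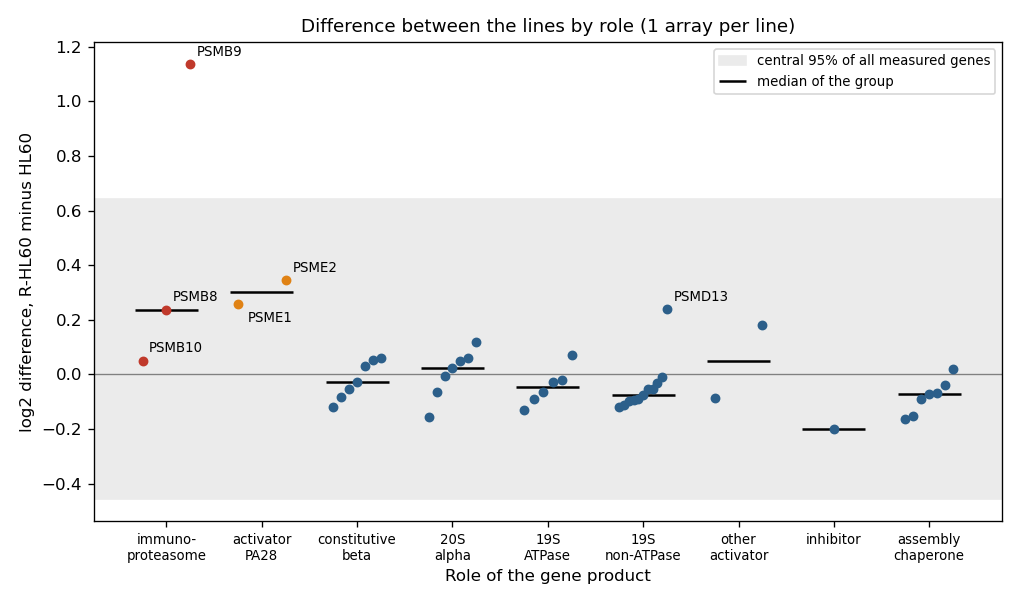
The log2 difference, R-HL60 minus HL60, of each measured subunit or regulator by role, with black lines for group medians and a grey band for the central 95% of all measured genes (-0.46 to 0.64). PSMB9 at 1.14 is the only point outside the band, and the other immunoproteasome and PA28 genes lie above 0, PSMB10 by 0.05 only, which became -0.04 after a shift by the median.

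Taking the 5 genes as 1 group and the 31 constitutive subunits of the core and the regulator as the other, the median log2 difference was 0.26 for the immunoproteasome and PA28 genes and -0.05 for the constitutive subunits, 0.31 apart. All 5 of the first group were above the median of all genes, as were 15 of the 31 constitutive subunits. Without PSMB9 the median of the other 4 was 0.25 and the gap 0.30, but a median moves little when its highest value is dropped. The groups overlapped: PSMD13 was as high as PSMB8, and 7 constitutive subunits were as high as PSMB10. No constitutive subunit was as high as PSMB9, PSME1 or PSME2. The groups were not matched in brightness. PSMB8, PSMB9 and PSME1 lay in a dimmer bin than nearly all constitutive subunits, one where the SD over all genes was 0.25. The only constitutive subunit in that bin was PSMD13, at 0.24.

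The constitutive subunits lay close together. Their log2 differences had an SD of 0.08 and ran from -0.16 to 0.24, a range that held 72.9% of the 6552 genes in the same 3 of 10 brightness bins. In the brightest bin, with 22 of the 31 subunits, the SD was 0.07 for the subunits and 0.15 for all genes, and in the next bin, with 8, it was 0.06 for the subunits and 0.19 for all genes. For the 6552 genes the median was -0.06 and 4594 were below 0, so the constitutive median of -0.05 was that of other genes as bright. The sign of this small median depends on the scaling: it was 0.02 in quantile normalization and in the authors' deposited normalized table, 0.01 after loess and -0.14 after a shift by the median. Likewise 9 of the 31 subunits were above 0, against 2 after the median shift and 16 after quantile normalization, so counts of signs among small differences hold for the 75th percentile scaling only. The gap between the groups was 0.30 to 0.31 under each of these.

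**Figure D3:**
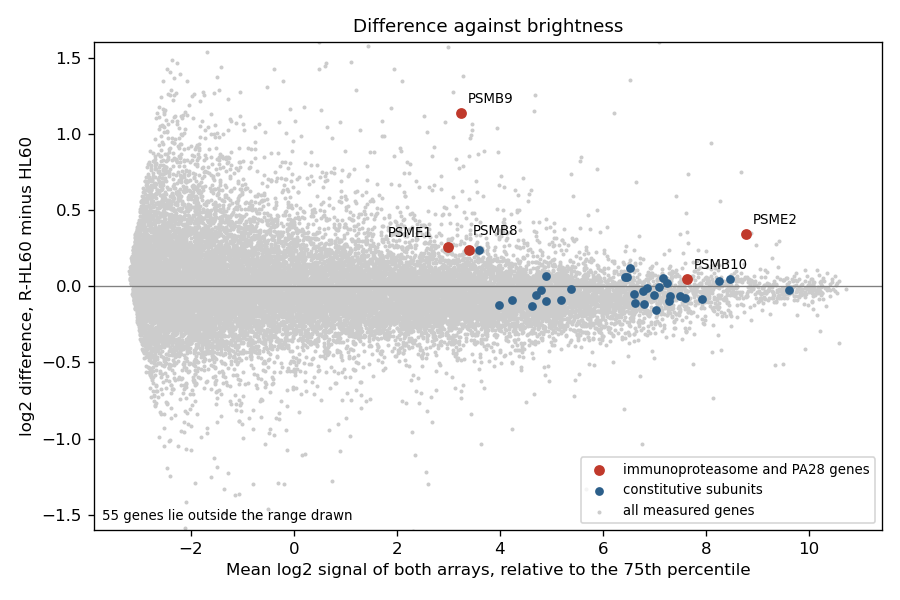
The log2 difference, R-HL60 minus HL60, against mean log2 signal relative to the array's 75th percentile, for all 21838 measured genes (grey), the 5 immunoproteasome and PA28 genes (red) and the 31 constitutive subunits (blue). The blue points follow the centre of the grey cloud, and 55 genes lie outside the range drawn.

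In the alpha rings, 4 of 7 subunits were above 0 and 3 below, with a median of 0.02. PSMA7 was highest with 28246 in R-HL60 and 25889 in HL60 (log2 difference 0.12), and 5.17% of genes of like brightness were as high. PSMA4 was lowest with 36636 in R-HL60 and 40570 in HL60 (-0.16). Of the 7 constitutive beta subunits, 3 were above 0, and the median was -0.03. PSMB2, a structural beta subunit, was highest with 25848 in R-HL60 and 24667 in HL60 (0.06), and PSMB5 was lowest.

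Among the 6 ATPases of the 19S base, which unfold substrates and open the gate of the core, the median was -0.04. PSMC4 was highest with 8930 in R-HL60 and 8458 in HL60 (0.07), and PSMC3 lowest with 6939 in R-HL60 and 7543 in HL60 (-0.13). The 11 other 19S subunits had a median of -0.07, with 10 of 11 below 0, as were 4594 of the 6552 genes as bright. PSMD13, a subunit of the 19S lid, stood apart from them with 3876 in R-HL60 and 3264 in HL60 (0.24, or 1.18-fold). Of genes of like brightness 5.08% were as high as PSMD13, close to the 5.22% for PSMB8. PSMD6, also of the lid, was lowest with 4460 in R-HL60 and 4821 in HL60 (-0.12). The ubiquitin receptor PSMD4 was at -0.09 and the deubiquitinase PSMD14, which removes ubiquitin before degradation, at -0.03.

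The remaining activators and the inhibitor had differences of both signs. PSME3, the nuclear PA28 gamma that interferon does not induce, had 9063 in R-HL60 and 9563 in HL60 (-0.09). PSME4, which encodes the activator PA200, had 3042 in R-HL60 and 2667 in HL60 on its brightest probe (0.18), but 654 in R-HL60 and 739 in HL60 on another (-0.19), so its direction is not settled. PSMF1, which encodes PI31, a protein that inhibits the isolated core, had 4313 in R-HL60 and 4923 in HL60 (-0.20). All 4 of its measured probes were below 0, from -0.35 to -0.06. A further probe, below the floor at 7.64 in R-HL60 and 2.04 in HL60, turns the value to 0.21 in the mean of all probes.

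Assembly factors were nearly equal on both arrays, with a median of -0.07 over 7 genes. PSMG4, a chaperone of alpha ring assembly, was highest with 34580 in R-HL60 and 33915 in HL60 (0.02), although a dim second probe gave 0.39. PSMD9, a chaperone of the 19S base, was lowest with 20621 in R-HL60 and 22975 in HL60 (-0.16), and its second probe gave -0.20.

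**Figure D4:**
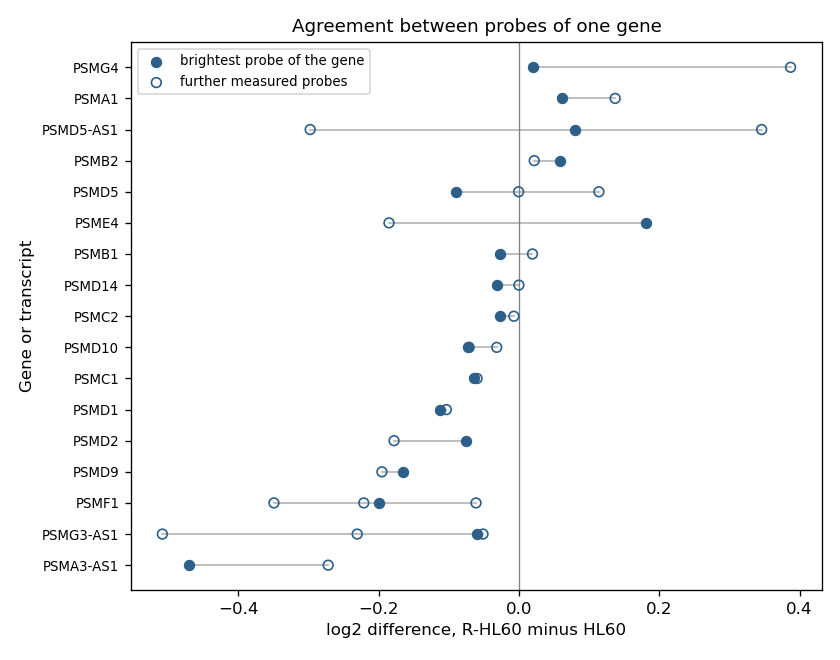
The log2 difference, R-HL60 minus HL60, of every measured probe for the 17 members with several measured probes, the brightest filled. Probes of 5 members lie on both sides of 0, and those of several others, PSMF1 and PSMA3-AS1 among them, all lie below it.

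Where members had several probes, the agreement shows how far probes of a gene differ on the same arrays. Over 17 such members and 41 probes the pooled probe-to-probe SD was 0.15 on the log2 scale. For PSMC1 both probes gave -0.06 and for PSMD1 they gave -0.11 and -0.10, while for PSMD5 they ran from -0.09 to 0.11. The widest range was that of PSMD5-AS1, no subunit, from -0.30 to 0.35. Differences of the size seen for PSMB10 and for most constitutive subunits lie within the pooled spread, and that of PSMB9 lies far outside it. The spread leaves out differences between cultures and between arrays, so it does not show how small a difference between the lines can be resolved.

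Partners of the proteasome that carry other names differed little between the lines. Of 22 listed partners 21 were measured, with a median of -0.11, against -0.03 over all genes. Most of these partners were bright. Over the 6552 genes as bright as the constitutive subunits the median was -0.06, and 4594 were below 0. Below 0 were 17 of the 21, as were 12491 of all 21838 genes, none was 1.5-fold higher, and 1 was at least 1.5-fold lower, where 1.26% of all genes were. That one was DDI2, the protease that releases the transcription factor NFE2L1, with 103 in R-HL60 and 169 in HL60 (-0.72). NFE2L1, which drives proteasome genes when degradation is impaired, was at 10373 in R-HL60 and 9121 in HL60 (0.18). TXNL1, a thioredoxin-like protein bound to the regulator, was highest at 0.23, and POMP, the maturation factor of the core, was at -0.17.

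Most genes of the class I pathway, which presents immunoproteasome peptides, had higher signals in R-HL60. Of its 16 genes, all measured, 13 were above 0, as were 9347 of all 21838 genes, and 6 were past 1.5-fold upward, with a median of 0.43, against -0.03 over all genes and 3.16% of them past 1.5-fold upward. TAP1 had 5878 in R-HL60 and 3694 in HL60 (0.66), and TAPBP, which bridges the transporter and class I molecules, had 6101 in R-HL60 and 3669 in HL60 (0.73). HLA-F (1.14), HLA-C (0.94), HLA-G (0.75) and HLA-B (0.74) were the others past 1.5-fold, although their probes can bind related HLA transcripts. The chaperone gene CANX was lowest at -0.32. Of 8 transcription factors and regulators known to act on these promoters, IRF2 was 1.53-fold higher at 93.4 in R-HL60 and 60.6 in HL60, and IRF8 1.52-fold lower at 47.6 in R-HL60 and 72.1 in HL60, both dim. NLRC5, the activator of class I genes, was at 0.29 and IRF1 at 0.34.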

How the data were processed

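Total RNA was labelled with Cy3 and hybridised to 1 array per line, per the labels' protocols. Agilent Feature Extraction 10.7.3.1 is named in the submitters' processing notes. The authors deposited 1 linear intensity per probe for each array, with gene names as the sole annotation of a probe, and a table of normalized intensities. How that table was made, and which scanner column was deposited, is not given in the sources here. The number of arrays limits the precision.

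Signals were taken to log2 and scaled to each array's 75th percentile. A gene was represented by its brightest probe and counted as measured above the array's median on both arrays. Of 43317 names, 21081 were current symbols of GRCh38.p14 and 1567 older symbols, which were updated, except that names matching the proteasome rule were kept as in the files. Like brightness means the same of 10 bins. No test was possible. The members and lists were chosen with earlier results of these data known. Named genes were the 5 immunoproteasome and PA28 genes, PSMB5, PSMB6, PSMB7, members past 1.5-fold and the highest and lowest of each role; others were named after their values were seen. Steps were tested on simulated data. Alternatives were other scalings, floors, an offset and the mean of all probes. Python 3.11.15, numpy 2.4.6, pandas 2.3.3 and statsmodels 0.14.6 were used.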

Additional observations from a re-analysis of the deposited data

How the results depend on the processing

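Of the 9 alternatives, the 3 floors and the mean of all probes could not change the immunoproteasome and PA28 genes, each read by 1 bright probe, and the authors' table gave them the same values as quantile normalization. Under the others PSMB9 stayed past 2-fold, from 1.05 to 1.20 on the log2 scale. PSMB8 (0.15 to 0.30), PSME1 (0.17 to 0.32) and PSME2 (0.25 to 0.40) stayed above 0, while PSMB10 ran from -0.04, after a shift by each array's median, to 0.11. That shift moved the immunoproteasome and PA28 median to 0.17 and the constitutive median to -0.14, by the same amount as it moved the median of all genes, to -0.12. The gap between both medians ran from 0.30 to 0.31. The count of members past 1.5-fold was 2 with the floor at the 40th percentile and 2 with no floor, because PSMB11, 1.52-fold lower and dim, was then counted. The count past 2-fold was 1 throughout. For 16 of the 31 constitutive subunits the sign differed between settings. No paired analysis was possible because each line has 1 array. A single probe for each of the 5 immunoproteasome and PA28 genes and the lack of a second culture limit what these arrays can resolve; all 5 were far above the floor.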

Other observations

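The transcripts that share only part of a proteasome name included the lowest measured member. PSMA3-AS1, an antisense transcript at the PSMA3 locus, had 1473 in R-HL60 and 2029 in HL60 (log2 difference -0.47, or 1.39-fold lower), and its second probe gave -0.27, while PSMA3 itself was at 0.02. Only 1.10% of genes of like brightness were as low as PSMA3-AS1. PSMB8-AS1, which starts beside PSMB8 on the other strand, had 219 in R-HL60 and 175 in HL60 (0.31), against 0.24 for PSMB8. PSMC3IP had 3788 in R-HL60 and 3256 in HL60 (0.21). PSMD5-AS1 had probes from -0.30 to 0.35, and PSMD6-AS2 was close to the floor.

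The genes next to PSMB9 and PSME2 were looked up after the members' values had been seen, taking the 4 nearest protein-coding genes on each side; the neighbours of PSMB10 were not. On chromosome 6, TAP1 (0.66) and PSMB9 (1.14), which start close together on opposite strands, had the highest differences. Around them HLA-DOA was at 0.46 and HLA-DMA at 0.24, both dim, PSMB8 at 0.24, TAP2 at 0.16, HLA-DOB at 0.08 and BRD2 at -0.14, and HLA-DMB was below the floor. On chromosome 14, EMC9 lies between PSME1 (0.26) and PSME2 (0.35) and was at 0.01, as was RNF31 on the other side of PSME2, whose promoter window holds the same GAAAGCGAAA as that of PSME2. Of the others FITM1, next to PSME1 and dim, was at 0.27, REC8 at 0.15, DCAF11 at 0.01, IPO4 at -0.10 and IRF9 at -0.11.

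Of 34 genes with GAAAGCGAAA in a window, 22 measured ones lay outside the 5 genes, some of them neighbours that share a match. Their log2 differences had a median of 0.01, from -0.32 for GRWD1 to 0.69 for PARP14, and 12 of 22 were above 0, as were 9347 of all 21838 measured genes. PARP14 and TAP1 were past 1.5-fold upward, 2 of 22, against 3.16% of all genes. The median over all measured genes was -0.03.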
